A study of Rattus norvegicus with 110 samples.

Results

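Slc10a2 encodes the apical sodium-dependent bile acid transporter, here followed through the liver and kidney of male rats that differed in their own carbon tetrachloride (CCl4) dose and in that of their forefathers. It was chosen by name as a single gene, 1 of the 31998 gene identifiers in the count tables, and its identifier is ENSRNOG00000037753. The study had picked Slc10a2 out of these same liver libraries, by its differences with ancestral treatment and between the vehicle-treated groups 17 and 20 and group 11, so every ancestry value is given as a description with no test. Differences between doses averaged over ancestries, differences between the high and the low dose, and all kidney values played no part in that choice, and these were tested.

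The transporter couples the uptake of conjugated bile acids to the sodium gradient. It is best known from the apical face of enterocytes in the terminal ileum, where it recovers bile acids for return to the liver. In the liver it sits on the apical membrane of cholangiocytes, the lining cells of the bile ducts, and takes bile acids back from bile. In the kidney it lies on the brush border of the proximal tubule and recovers bile acids from the filtrate. Hepatocytes, which make up most of the liver, take up bile acids through other carriers, so a whole-liver library reads this gene from a small fraction of its cells.

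All animals were outbred Sprague Dawley rats, and F2 denotes the sampled grandsons of the treated founders (F0). F0 and F1 males had received 50% CCl4 in olive oil, or olive oil alone, by oral gavage 3 times a week for 6 weeks, and were mated with untreated females after 2 weeks of recovery. Poly(A) RNA was sequenced from 83 livers, in 12 groups of 7 F2 males apart from group 17 with 6, which lacked a male that did not tolerate treatment, and from 27 kidneys of the vehicle-treated F2 males. Vehicle males were given olive oil, low-dose males 8% CCl4 and high-dose males 50% CCl4, all at 0.5 ml/kg, and treatment began at 9 to 11 weeks of age, ran for 39 days and ended with sampling 24 h after the last dose. Cohort A had no treated ancestor (groups 11 to 13), cohort B a treated F1 sire (groups 14 to 16), cohort C a treated F0 grandsire (groups 17 to 19) and cohort D both (groups 20 to 22). The F2 males came from 34 litters of 17 F0 sires and were sampled on 4 necropsy dates. Litter mates were treated as separate animals, so p-values measure the spread between males and not between families.

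The libraries summed to 31638600 to 51343600 counts in liver and 21961700 to 35055200 in kidney. Of these, Slc10a2 took 18 to 241 counts per liver library (median 92) and 24 to 109 per kidney library (median 62). The depth was thus enough to read the gene in every animal. Counting error alone would have given a coefficient of variation of 12.4% among the vehicle livers. The measured value was 50.0% with all cohorts pooled, which includes the differences between cohorts. Most of the spread thus lay between the cohorts, the animals or their samples. Tat, an enzyme of tyrosine breakdown in hepatocytes, had a median of 738 CPM, normalized counts scaled to a library of 1000000, in vehicle liver and 0.151 in kidney. Lrp2, the proximal tubule receptor megalin, had 2962 CPM in kidney and 18.1 in liver, so both organs carried the markers of their labels. The liver library of replicate 4 of cohort C vehicle stood apart on the first principal component (38.7, against -17.2 to 11.4 in the other vehicle livers), and its Slc10a2 level was 1.75 CPM, inside the range of its group.

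The stretch just before the Slc10a2 start site is printed because Fos, which encodes a subunit of the AP-1 factor, was measured in these libraries. It holds the 250 bases upstream of the start on the plus strand of the RefSeq rat assembly GRCr8, chr16:91087839-91088088. Capitals mark a match to the AP-1 pattern TGANTCA, in which the middle base may be any (searched on both strands and found as TGATTCA, with a T there).
Slc10a2 promoter: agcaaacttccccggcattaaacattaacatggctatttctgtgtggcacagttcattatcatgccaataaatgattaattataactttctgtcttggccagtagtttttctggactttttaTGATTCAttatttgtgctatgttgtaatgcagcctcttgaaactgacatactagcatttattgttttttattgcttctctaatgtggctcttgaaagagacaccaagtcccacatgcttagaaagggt
The motif begins 128 bases before the start and was present in 6.34% of 33469 rat promoters of this length. A match of this kind is a run of letters, not a measured binding site.

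Slc10a2 was a low-abundance transcript in the liver of vehicle-treated rats. In cohort A vehicle livers (group 11, n = 7) its level ran from 0.700 to 1.87 CPM with a median of 1.11, and averaged 1.22 ± 0.408 CPM (SD). Its median over all vehicle livers was 1.89 TPM, the length-corrected counts scaled to 1000000, above 40.4% of the 17623 genes with a TPM above 0 in 50% or more of all livers. The biological coefficient of variation, edgeR's estimate of the spread beyond counting error, was 0.382 for Slc10a2 in liver. Its median over all genes tested in liver was 0.309. The fit takes this value from a trend with abundance. It therefore does not show whether Slc10a2 itself varied more between males of 1 group than other genes.

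Across the 27 vehicle livers of the 4 cohorts Slc10a2 spanned 0.612 to 4.99 CPM (median 1.87, mean 2.02 ± 1.01). The 28 low-dose livers spanned 0.937 to 4.03 CPM (median 2.20, mean 2.14 ± 0.819). The 28 high-dose livers spanned 1.59 to 5.01 CPM (median 2.65, mean 2.84 ± 0.979). The 3 ranges overlapped almost wholly and the high dose raised the low end: none of the high-dose livers had less than 1.59 CPM. Of the high-dose livers, 24 of 28 lay above the vehicle median but only 1 of 28 above the highest vehicle liver, and of the low-dose livers 17 of 28 lay above the vehicle median.

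Slc10a2 was 1.44-fold higher at the high dose than under vehicle, averaged over the cohorts (log2 difference 0.52, SE 0.15, 95% confidence interval 0.23 to 0.81, adjusted p = 0.00128 by edgeR's quasi-likelihood test with Benjamini-Hochberg adjustment). This call was shared with much of the transcriptome: 72.2% of the genes tested in liver passed in this contrast, and 37.8% passed as higher, so a rise of Slc10a2 is not particular to it. It stood within the more modest changes, since its log2 difference lay under 1 and 25.3% of all genes passed with an absolute log2 difference over 1.

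The low dose gave no such call. Slc10a2 differed from vehicle by 0.12 on the log2 scale (SE 0.15, 95% confidence interval -0.17 to 0.42, edgeR adjusted p = 0.620), where 28.4% of genes passed, and the interval reached from a fall to a 1.34-fold rise. Set against each other, the high dose exceeded the low dose 1.32-fold (log2 difference 0.40, SE 0.14, 95% confidence interval 0.11 to 0.69, edgeR adjusted p = 0.0140). In that contrast 64.8% of genes passed, 33.7% as higher. Of the high-dose livers 19 of 28 lay above the low-dose median and 4 of 28 above the highest low-dose liver. Without necropsy date 4 the difference between the doses was 0.29 and no longer passed (edgeR adjusted p = 0.162).

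The size of the high-dose rise depended on how the libraries were scaled, though its direction did not. The 10 most abundant genes took 24.2% of counts in vehicle livers, 22.5% in low-dose livers and 19% in high-dose livers, and the TMM scaling factors moved with this, from a median of 0.841 in vehicle to 0.942 and 1.27. When libraries were scaled by their totals instead, Slc10a2 was 2.17-fold higher at the high dose than under vehicle (log2 difference 1.12, edgeR adjusted p = 2.45e-10), while the median of all genes itself rose by 0.62. Relative to that median the Slc10a2 difference was 0.50. Relative to the library total, the low dose differed from vehicle by 0.29 (edgeR adjusted p = 0.119, median of all genes 0.17). On the length-corrected TPM scale, which also divides by a library's sum, the means were 1.92 ± 0.995 in vehicle, 2.18 ± 0.867 in low-dose and 4.13 ± 1.27 in high-dose livers. A whole-organ measurement cannot separate fewer or more cells of a type from less or more RNA per cell.

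The rise at the high dose was seen on every necropsy date, with log2 differences from vehicle of 0.24 to 0.92 in the 4 dates. The difference between high and low dose was also above 0 on all of them, between 0.03 and 0.77. The low dose lay above vehicle on 3 of 4 dates, with differences of -0.07 to 0.43.

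**Figure D1:**
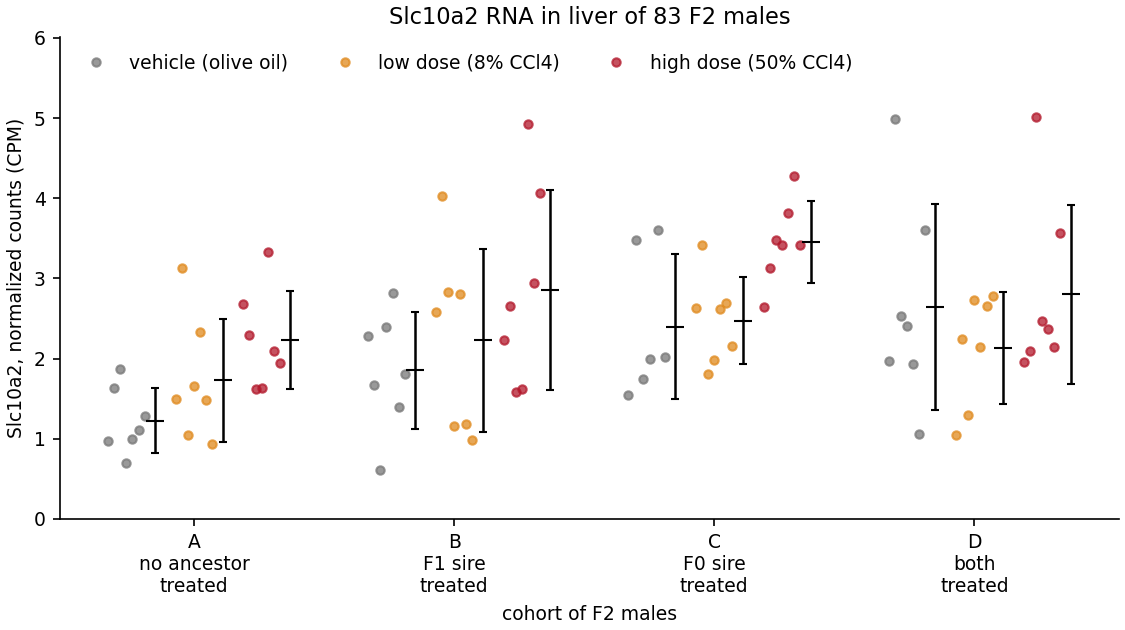
Slc10a2 level in each liver (y axis, TMM-normalized counts, CPM) for the 12 groups on the x axis, ordered by cohort and F2 dose, with each point a male and bars the group mean ± SD. Cohort A vehicle males had the lowest group mean (1.22) and cohort C high-dose males the highest (3.45), and the ranges of neighbouring groups overlap.

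Within cohort A, where no ancestor was treated, the mean of Slc10a2 was lowest under vehicle, intermediate at the low dose and highest at the high dose. The 7 low-dose livers (group 12) ran from 0.937 to 3.13 CPM with a median of 1.5 (mean 1.73 ± 0.768). The 7 high-dose livers (group 13) ran from 1.62 to 3.34 CPM with a median of 2.10 (mean 2.23 ± 0.614). Of the high-dose livers 5 of 7 lay above the highest vehicle liver of the cohort, the clearest separation of any dose from its own vehicle group. The log2 differences from vehicle were 0.50 for the low and 0.86 for the high dose, given without a test because the vehicle groups took part in the choice of the gene.

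In cohort B, sons of treated F1 males, the vehicle livers (group 14) ran from 0.612 to 2.82 CPM with a median of 1.81 (mean 1.85 ± 0.730). The low-dose livers (group 15) ran from 0.983 to 4.03 with a median of 2.58 (mean 2.23 ± 1.14), and the high-dose livers (group 16) from 1.59 to 4.93 with a median of 2.66 (mean 2.86 ± 1.25). The order of the means was the same as in cohort A, and the spread within the dosed groups was wider. The log2 differences from vehicle were 0.26 and 0.62.

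In cohort C, whose F0 grandsires were treated, the 6 vehicle livers (group 17) ran from 1.54 to 3.60 CPM with a median of 2.01 (mean 2.40 ± 0.904). The low-dose livers (group 18) ran from 1.81 to 3.42 with a median of 2.62 (mean 2.47 ± 0.543), and the high-dose livers (group 19) from 2.64 to 4.28 with a median of 3.42 (mean 3.45 ± 0.514). Vehicle and low-dose means were nearly equal, with a log2 difference of 0.04, and the high dose stood 0.52 above vehicle. High-dose livers of cohort C were the least scattered relative to their mean, and 4 of 7 exceeded every low-dose liver of the cohort.

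In cohort D, with both ancestors treated, the vehicle livers (group 20) ran from 1.06 to 4.99 CPM with a median of 2.41 (mean 2.64 ± 1.29). The low-dose livers (group 21) ran from 1.05 to 2.78 with a median of 2.24 (mean 2.13 ± 0.700), and the high-dose livers (group 22) from 1.95 to 5.01 with a median of 2.37 (mean 2.80 ± 1.11). Here the 3 groups overlapped almost completely. The log2 differences from vehicle were -0.31 for the low and 0.08 for the high dose.

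The step from the low to the high dose, which uses no vehicle liver, had estimates of 0.36 to 0.48 in the 4 cohorts and passed the test in none of them alone. The log2 difference was 0.37 in cohort A (edgeR adjusted p = 0.372), where 34.3% of genes passed. It was 0.36 in cohort B (edgeR adjusted p = 0.349, 42.2% of genes), 0.48 in cohort C (edgeR adjusted p = 0.216, 34.9%) and 0.39 in cohort D (edgeR adjusted p = 0.332, 33.1%), each with an SE of 0.29. The cohort B step turned to -0.0493 without necropsy date 4 and was 0.81, past the threshold, without date 1 (edgeR adjusted p = 0.0783), and within dates it ran from -0.40 to 1.64. The other steps also fell under some alternatives. The cohort A step was 0.25 without date 4, that of cohort C 0.25 with the litter as a block and that of cohort D 0.19 without date 2. All 4 intervals included 0, and their upper ends lay at 1.91-fold or more. Relative to library totals the same steps were 0.83, 0.85, 0.84 and 0.77 and all passed (edgeR adjusted p from 0.0103 to 0.0238), with the median of all genes at 0.49, 0.53, 0.34 and 0.47.

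Whether the step differed with F0 treatment was tested as an interaction. The step in cohorts C and D exceeded that in cohorts A and B by 0.07 on the log2 scale (SE 0.29, 95% confidence interval -0.50 to 0.65, edgeR adjusted p = 1), and within the 4 necropsy dates the interaction ran from -0.85 to 0.81. In this contrast 0% of genes passed by edgeR, 716 genes (3.77%) had an unadjusted p under 0.05, and DESeq2 called 7. As a ratio of steps the interval ran from 0.707 to 1.57, so a moderate difference in either direction was not detectable with these groups.

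**Figure D2:**
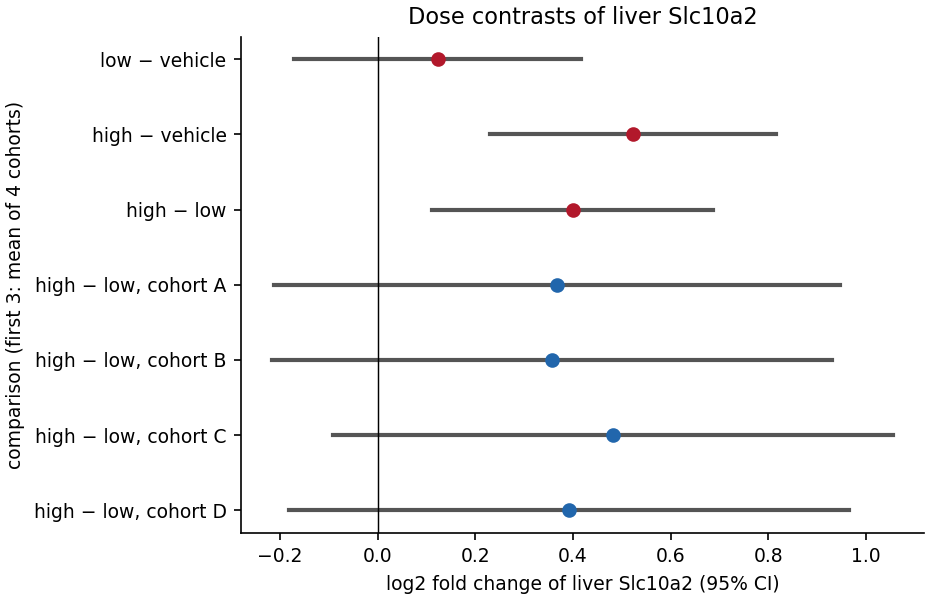
Log2 difference in liver Slc10a2 (x axis) for each tested dose contrast, with 95% confidence intervals from edgeR after TMM scaling. The means over 4 cohorts of the high dose against vehicle (0.52) and against the low dose (0.40) lie clear of 0, and the single-cohort steps (0.36 to 0.48) have intervals that include it; relative to library totals all of these are larger.

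Under vehicle, the group means of Slc10a2 in the 3 cohorts with a treated ancestor lay above that of cohort A. Cohort B differed from cohort A by 0.60 ± 0.30 (SE) on the log2 scale, cohort C by 0.97 ± 0.31 and cohort D by 1.11 ± 0.30, or 1.96-fold in C and 2.16-fold in D. The highest cohort A liver was exceeded by 3 of 7 livers of cohort B, by 4 of 6 of cohort C and by 6 of 7 of cohort D. The cohort C and D differences are contrasts by which the gene had been picked, and the cohort B difference shares cohort A with them. Their size is therefore not independent evidence of a difference. The paper also measured cohorts A and C under vehicle by RT-qPCR on newly extracted liver RNA, where Slc10a2 was increased. By in situ hybridization it reported a trend of more stained surface in bile ducts. Those assays used livers of the same groups and are not part of the values here. The 3 vehicle differences changed little with scaling (1.02 in C and 1.17 in D relative to library totals). All 3 were above 0 within each of the 4 necropsy dates, ranging from 0.08 to 1.46 for cohort B, 0.58 to 1.14 for cohort C and 0.69 to 1.29 for cohort D.

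Among dosed males the estimates of the same ancestry differences were smaller. At the low dose they were 0.37 in cohort B, 0.52 in C and 0.30 in D, and at the high dose 0.36, 0.63 and 0.33, each with an SE of 0.29. The cohort D estimate did not keep its sign when 1 necropsy date was left out, at -0.031 for the low dose without date 4 and -0.0187 for the high dose without date 2, and within dates it ran from -0.48 to 1.17 and from -0.49 to 1.09. At the low dose the gaps between these cohorts were within 1 SE, and their order changed without date 1 or date 4. At the high dose 5 of 7 cohort C livers exceeded every cohort A liver. The F0 difference, cohorts C and D minus A and B, was 0.74 ± 0.21 under vehicle, 0.23 ± 0.21 at the low and 0.30 ± 0.20 at the high dose. Without date 4 the low-dose value was -0.0703, and without date 2 the high-dose value was 0.00293. The F1 difference, cohorts B and D minus A and C, was 0.37, 0.08 and 0.03 at the 3 doses. No test was made of whether the vehicle value differed from the dosed ones, because the vehicle contrast had served to choose the gene.

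Within the necropsy dates the F0 difference was above 0 on 4 of 4 dates under vehicle (0.22 to 0.79). It was above 0 on 2 of 4 dates at the low dose (-0.29 to 1.15) and on 2 of 4 at the high dose (-0.43 to 1.09), so that its direction in the dosed males varied with the date.

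Averaging litter mates and males of the same line by F0 sire gave the same order. Under vehicle the means of the 8 control sires' grandsons ran from 0.612 to 1.89 CPM (mean 1.5 ± 0.412) and those of the 9 treated sires' grandsons from 1.06 to 4.99 CPM (mean 2.49 ± 1.16). In these vehicle males the treated families were spread more widely than the control families and overlapped them at the low end. At the low dose the family means were 2.14 ± 1.06 and 2.32 ± 0.343, and at the high dose 2.52 ± 0.682 and 3.14 ± 0.651.

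**Figure D3:**
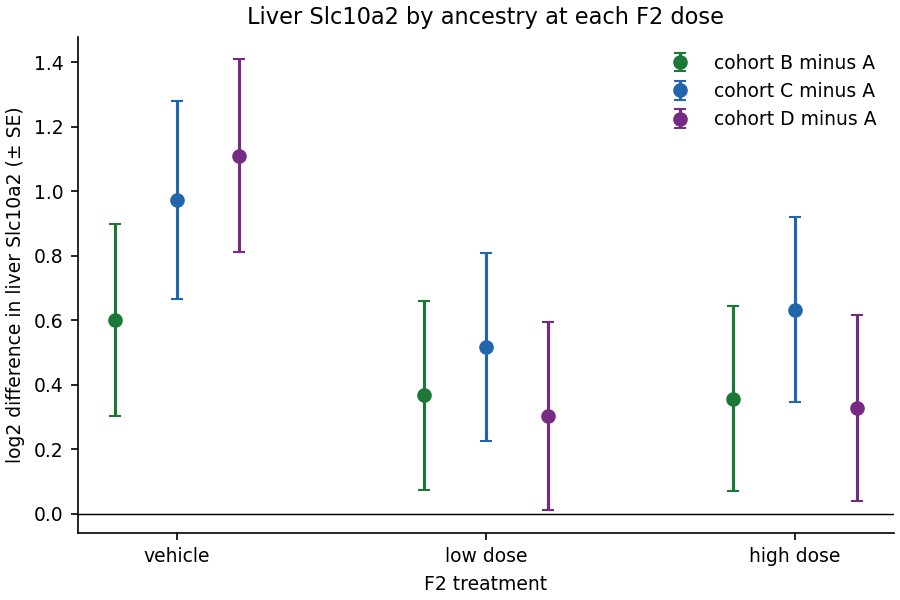
Log2 difference of cohorts B, C and D from cohort A in liver Slc10a2 (y axis) at each F2 dose (x axis), with bars of ± 1 SE. The vehicle differences are 0.60, 0.97 and 1.11, of which those of cohorts C and D are contrasts by which the gene was chosen. The differences at the low and high dose lie between 0.30 and 0.63.

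Ordered by mean, the 12 liver groups began with cohort A vehicle and cohort A low dose, followed by cohort B vehicle, cohort D low dose, cohort B low dose and cohort A high dose. Above these came cohort C vehicle, cohort C low dose and cohort D vehicle, and then the high-dose groups of cohorts D, B and C. The high-dose mean of cohort A (2.23 CPM) thus lay below the vehicle means of cohorts C (2.40) and D (2.64). All 11 neighbouring pairs in this order had overlapping ranges and differed by less than the larger of their SDs, so no single place in the order is fixed.

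The kidneys of the same vehicle males gave a measure that had not been used to choose the gene. Scaled within kidney, Slc10a2 in cohort A ran from 0.802 to 4.11 CPM with a median of 2.13 (mean 2.30 ± 1.09, n = 7). In cohort B it ran from 1.89 to 2.43 with a median of 2.19 (mean 2.15 ± 0.185), in cohort C from 1.61 to 2.24 with a median of 2.05 (mean 2.01 ± 0.231, n = 6) and in cohort D from 1.70 to 3.13 with a median of 2.14 (mean 2.22 ± 0.482). The 4 medians were nearly equal, and the ranges of the other three cohorts fell wholly inside that of cohort A, which held both the lowest and the highest kidney.

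No ancestry difference in kidney Slc10a2 passed the test. The F0 term was -0.07 on the log2 scale (SE 0.16, 95% confidence interval -0.39 to 0.25, edgeR adjusted p = 0.914), in a contrast where 0.0109% of the 18374 genes tested passed (2 genes by edgeR and 77 by DESeq2). The F1 term was 0.02 (SE 0.16, edgeR adjusted p = 0.999), where 0% of genes passed by edgeR, 1225 genes had an unadjusted p under 0.05 and DESeq2 called 0. Against cohort A, the differences were -0.09 in cohort B (edgeR adjusted p = 1), -0.19 in cohort C (edgeR adjusted p = 0.947) and -0.05 in cohort D (edgeR adjusted p = 0.964). In the cohort B and C contrasts 0% of genes passed by edgeR (878 and 1081 at an unadjusted p under 0.05, and 3 called by DESeq2 in each), and in the cohort D contrast 0.702% passed (129 genes by edgeR and 552 by DESeq2). The signs of the F0 term and of the 3 cohort differences rested on necropsy date 2: without it F0 was 0.14 and cohorts B, C and D stood at 0.22, 0.12 and 0.39 against A, and none passed. Within dates the F0 term was above 0 on 3 of 4 (-0.50 to 0.36), the F1 term on 3 of 4 (-0.44 to 0.34), and cohorts B, C and D against A on 2, 3 and 3 of 4 (-0.63 to 0.49, -0.70 to 0.30 and -0.94 to 0.55). The interval of the F0 term excludes a kidney rise as large as the 0.74 estimated for F0 in vehicle liver, a value that the choice of the gene may have enlarged; the difference between the organs in the F0 term was not tested.

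With the liver and kidney libraries scaled together, kidney Slc10a2 ran from 0.571 to 2.94 CPM with a median of 1.52, and vehicle liver from 0.704 to 5.80 CPM with a median of 2.17. Kidney was lower by 0.54 on the log2 scale after TMM scaling (SE 0.14, 95% confidence interval -0.82 to -0.27, 1.46-fold lower, edgeR adjusted p = 0.000386), but relative to library totals it was 1.33-fold higher (log2 difference 0.41, edgeR adjusted p = 0.00576), where the median of all genes stood at 1.01. Relative to that median Slc10a2 stood at -0.59, so on both scales it lay below the typical gene in the comparison, and its order between the organs was not fixed. In this contrast 85.3% of 19292 genes passed, 40.6% as lower. Livers were amplified with 12 PCR cycles and kidneys with 13, and organ and library preparation cannot be told apart.

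By cohort, the mean in jointly scaled liver was 1.43 ± 0.462 CPM in cohort A, 2.16 ± 0.852 in B, 2.79 ± 1.07 in C and 3.07 ± 1.49 in D. The kidney means were 1.65 ± 0.786, 1.55 ± 0.128, 1.44 ± 0.171 and 1.59 ± 0.344 in the same order. Kidney was below liver in 2 of 7 males of cohort A, 6 of 7 of cohort B, 6 of 6 of cohort C and 5 of 7 of cohort D. Relative to library totals it was below liver in 2, 1, 2 and 4 males, so the count in cohort A was the same on both scales and those in the other three cohorts were not. Per length, the mean was 2.31 ± 0.679 TPM in kidney and 1.92 ± 0.995 TPM in vehicle liver, and kidney was the higher in 16 of 27 males.

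**Figure D4:**
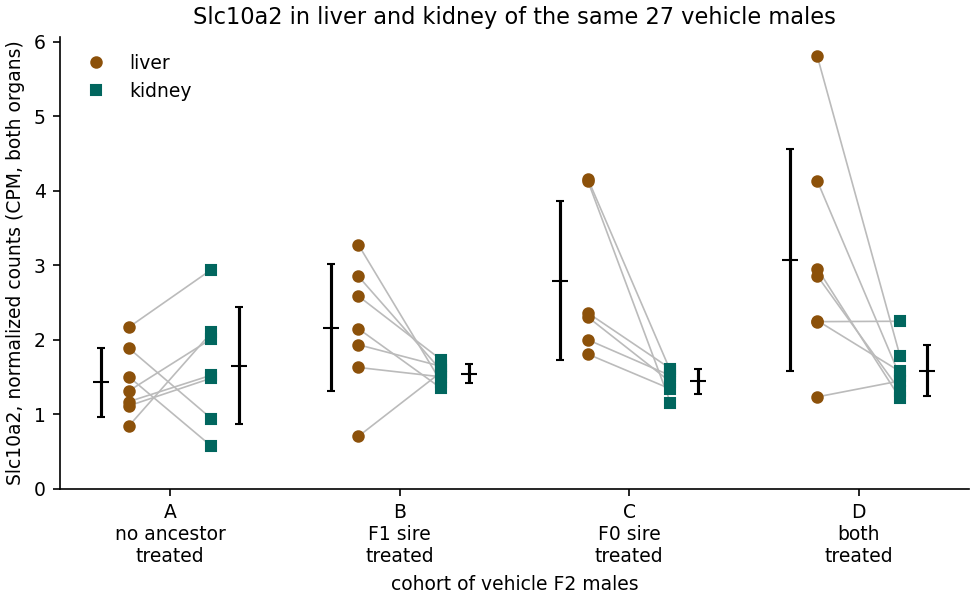
Slc10a2 in liver and kidney of the vehicle males of each cohort (y axis, CPM after joint TMM scaling), each point a male and bars the mean ± SD. Liver means run from 1.43 in cohort A to 3.07 in cohort D while kidney means stay between 1.44 and 1.65; the order of the organs turns when libraries are scaled by their totals.

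The liver level of a male gave no sign of his kidney level. Over the 27 vehicle males, with cohort means removed, Pearson's r was -0.0374 (permutation p = 0.849, adjusted 0.849 over 4 relations) and Spearman's rho -0.0818 (permutation p = 0.685, adjusted 0.913). Without the 2 males whose kidney level, with cohort means removed, lay farthest from the median, r was -0.195. Within the necropsy dates r was 0.121 and -0.168 for the dates with 8 males, 0.210 for that with 7 and -0.711 for that with 4.

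**Figure D5:**
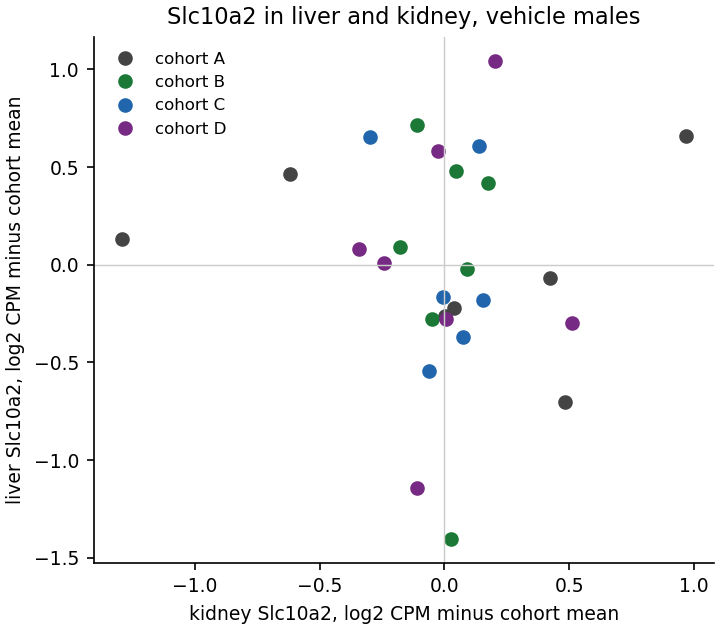
Slc10a2 in liver (y axis) against kidney (x axis) of the same 27 vehicle males, both as log2 CPM with cohort means removed. The points show no slope (r = -0.0374).

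Genes that act with Slc10a2 could be followed only in part. Of 98 genes in lists of bile acid transport, synthesis and sensing and of cell type markers, the sources used here gave an identifier for 9, which is too few to describe any list as a whole. All 9 were tested in liver: at the high dose 4 were higher and 4 lower than vehicle, with a median log2 difference of -0.12 against 0.01 over all genes, and at the low dose Fos alone passed, as higher. Over all genes tested, 37.8% passed as higher and 34.4% as lower at the high dose, and 28.4% passed at the low dose, so these counts were close to the background. Relative to library totals 8 of 9 were higher at the high dose, where 15565 of all genes passed and 89.3% of those were higher, so that the directions below hold after TMM scaling.

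Fgfr4, the hepatocyte receptor for the ileal hormone that curbs bile acid synthesis, was lower at the high dose (-0.59 on the log2 scale, SE 0.07, edgeR adjusted p = 2.42e-11), its mean going from 42.9 CPM in vehicle to 28.3. Atp8b1, a phospholipid flippase of the canalicular membrane, was lower by a smaller step (-0.21, SE 0.08, edgeR adjusted p = 0.0198). Over the 83 livers with group means removed, their correlation with Slc10a2 was 0.05 for Fgfr4 and 0.04 for Atp8b1.

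Fos rose at both doses, from a mean of 0.668 CPM in vehicle to 1.58 at the low dose (log2 difference 1.23, edgeR adjusted p = 0.00208) and 3.22 at the high dose (2.13, edgeR adjusted p = 1.34e-08). Over the 12 group means its correlation with Slc10a2 was 0.64, but over the 83 livers with group means removed it was -0.13, so livers of 1 group with more Fos did not hold more Slc10a2.

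Markers of other cells moved with the high dose as well. Of 5 macrophage and leukocyte markers 2 had an identifier, and of 7 stellate cell and myofibroblast markers none. The macrophage genes Adgre1 (0.39, edgeR adjusted p = 0.000577) and Cd14 (0.24, edgeR adjusted p = 0.0868) were higher, and Tat differed by -0.12 (edgeR adjusted p = 0.588). Lrp2 (0.22, edgeR adjusted p = 0.0952) was higher and the podocyte gene Nphs1 (-0.37, edgeR adjusted p = 0.00272) lower, both at low levels in liver. The part of cell composition in the Slc10a2 difference was not tested.

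The liver genes whose levels were most like Slc10a2 were sought in 2 ways among 12613 genes with a mean of at least 1 CPM, as descriptions. Between males of the same group, over all 83 livers, the closest was Hnf4g, a nuclear receptor related to hepatocyte nuclear factor 4 alpha, with r = 0.53, and it was the only gene over 0.5. Prkd3, a protein kinase D isoform, followed at 0.47 among the first 5, the other three of which had no symbol here. These likenesses were within groups only: the median of Hnf4g went down with dose, from 12.2 CPM in vehicle to 10.6 and 6.59, and that of Prkd3 from 148 to 132 and 78.4, against the rise of Slc10a2.

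Over the 12 group means the closest genes were Sh3pxd2a, which encodes an adaptor protein of podosomes, Zfp775, a zinc finger gene, the locus named Dusp11 and LOC103690006, Arhgap33 and a gene without a symbol, all with r = 0.94. The 12 points share their dose series, and 2737 genes exceeded 0.5. Arhgap33 had medians of 2.10, 2.63 and 3.97 CPM across the doses and Sh3pxd2a 8.50, 10.2 and 11.7, in the same order of doses as Slc10a2, while Zfp775 had 4.68, 4.58 and 5.19, with its low dose below vehicle.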

How the data were processed

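Slc10a2 was read from 2 deposited tables of gene-level counts, 83 F2 livers and 27 kidneys of vehicle males. The authors prepared stranded poly(A) libraries, sequenced paired 50-base reads and quantified them with Salmon 0.14.0 against Ensembl release 100 (k 31, GC bias correction), summarised by gene with tximport in R 3.5.0; the deposited values are these estimated counts, already rounded to whole numbers. The authors' deposited table of average transcript lengths (bases; another kind of value than counts) entered TPM and an alternative. Groups came from the labels.

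A gene entered a fit when the counts of any group added up to more than 10. Counts were scaled by TMM and tested with edgeR 4.0.16 (quasi-likelihood, R 4.3.3) on 12 liver group means, on F0 and F1 terms or 4 group means in kidney, and on 8 group means for both organs, with Benjamini-Hochberg adjustment over all genes tested and a call at adjusted p under 0.1. Log2 CPM used a prior count of 2. Relations across libraries used two-sided permutation tests of 100000 resamples on values with group means removed. CPM are TMM-scaled.

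The gene, the lists and the rules for naming genes were chosen with earlier results of these data known. Named were Slc10a2, list members with an identifier, and the 5 genes most like Slc10a2 on each of 2 measures. Symbols came from a supplementary table (1489 identifiers with a symbol). 1 list member is counted but not reported here by name, nor are the 3 relations across livers that used it. Alternatives were DESeq2 1.42.0, its size factors, transcript length offsets, no filter, blocks for necropsy date, litter or animal, leaving out each date or the library that stood apart, and library totals, the last chosen after seeing the data. The code was tested on simulated data with known changes. The depth gives a counting error of 12.4% for Slc10a2 in vehicle liver and 12.7% in kidney; PCR duplicates were not marked by molecular identifiers, so this covers counting error only. Over all genes, litter mates in different dose groups had deviations from their group means with a mean correlation of 0.0795 over 68 pairs, against -0.0102 over 506 pairs of other males of the cohort. For Slc10a2 alone, the mean product of the deviations, as a share of their variance, was 0.193 for litter mates and -0.026 for the others. Litters, F0 sires and necropsy dates came from the study's supplementary animal list; a litter block pairs brothers of different dose groups.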

Additional observations from a re-analysis of the deposited data

How the results depend on the processing

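The high-dose difference from vehicle passed under all 12 alternatives (0.46 to 1.12 on the log2 scale, edgeR or DESeq2 adjusted p from 2.45e-10 to 0.0182), and the low-dose difference under none (0.04 to 0.29, adjusted p from 0.119 to 0.919). With the litter as a replicate block the high-dose difference was 0.50 (edgeR adjusted p = 0.00515) and that between the doses 0.36 (edgeR adjusted p = 0.0481), and with the animal as a block kidney was at -0.50 against liver; pairing by litter or animal changed no call and turned only the F0 interaction, to -0.0401. The difference between the doses fell to 0.29 without necropsy date 4. Within cohort B this step was 0.81 and passed without date 1 (edgeR adjusted p = 0.0783), and was -0.0493 without date 4. With library totals the steps in cohorts A, B, C and D were 0.83, 0.85, 0.84 and 0.77 and passed, the F0 interaction was -0.035 and kidney against liver was 0.41. The F0 interaction was also negative without date 1 (-0.081) and without date 2 (-0.22). In kidney, without date 2 the F0 term was 0.14 and cohorts B, C and D stood at 0.22, 0.12 and 0.39 against A, and the F1 term was -0.10, -0.0159 and -0.0407 without dates 1, 3 and 4; none of these passed. Of the list genes at the high dose, edgeR with library totals called 8 higher and 0 lower, and an added limit of 1 on the absolute log2 difference left 1 higher (Fos) and 0 lower. Leaving out the vehicle library that stood apart changed no call and no direction. The 187 alternative values of the ancestry differences in liver moved by less than the SD between males of a group, 0.55 on the log2 scale, which is wider than the SE of a difference: the sign turned for cohort D against A at the low dose without date 4 and at the high dose without date 2, and for the F0 difference at the low dose without date 4 (-0.0703), and for the F1 difference at the low dose without date 2 (-0.000875) and at the high dose without date 2 (-0.0217) and without date 4 (-0.04). The causes of these shifts were not tested beyond what each setting leaves out. The 18 to 241 counts per liver and an SE of 0.29 for a step within 1 cohort limit what a single cohort can show.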

Other observations

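Slc10a2 levels in liver by necropsy date, a label spread over all cohorts, are given as values. High-dose livers averaged 2.46 ± 0.387 CPM on date 1 (n = 8), 2.60 ± 1.26 on date 2 (n = 8), 3.61 ± 1.07 on date 3 (n = 4) and 3.06 ± 0.919 on date 4 (n = 8). Low-dose livers averaged 2.57 ± 0.980, 1.82 ± 0.676, 2.47 ± 0.296 and 1.86 ± 0.801 on the same dates, and vehicle livers 2.32 ± 1.30, 1.75 ± 0.804, 1.94 ± 0.747 and 1.99 ± 1.05. No test was made of the dates.

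None of the 16 groups of Slc10a2 values held a male set apart from the others by Dixon's criterion, which by chance marks about 1 group in 20.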
